A study of Homo sapiens with 6 samples.

Results

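The genes described here are 60 regulators of mitosis: mitotic kinases, cyclins and phosphatases, spindle checkpoint proteins, centromere and kinetochore subunits, and proteins of the spindle, of cytokinesis and of chromosome condensation. Kinesins other than the kinetochore motor CENPE were not included. The members were taken by symbol from a named list, each matched exactly 1 row, and they are 60 of the 21429 genes in the deposited table. All 60 had a mean regularized-log (rlog) value of at least 3 over the 6 libraries and so were among the 15327 genes tested. An rlog value is an expression level on the log2 scale, adjusted for sequencing depth, in which low-count genes are drawn towards their average over the libraries.

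The cells were U251, an established human glioma line, carrying a stably expressed mutant amyloid precursor protein (K670N/M671L) in every library, controls included. Cells were electroporated with a control siRNA (siNC, 3 libraries) or with an siRNA against RPL13 (siRPL13, 3 libraries), a ribosomal protein gene. The study asked which transcripts change when RPL13 is knocked down. All cultures received doxycycline at 1 µg/mL at 24 h to induce the precursor, and RNA was taken at 72 h. Each U251 culture is of 1 line, and the labels do not say whether the mutant precursor line is a clone.

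Entry into mitosis is driven by CDK1 bound to cyclin A or B, which CDC25 phosphatases activate. The spindle assembly checkpoint holds the anaphase-promoting complex in check until every kinetochore is attached, after which separase opens the cohesin rings and the sister chromatids part. Transcripts of these genes rise together in G2 and M phase, under the DREAM and MuvB complexes, B-MYB and FOXM1, and their summed level is widely used as a measure of proliferation. In bulk RNA a lower share of cells in G2 and M phase and less transcript per such cell cannot be told apart.

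Many mitotic promoters carry a cell cycle genes homology region (CHR, TTTGAA, in some genes TTCGAA) a short distance before the start site, with CCAAT boxes upstream, the letters bound by NF-Y. Promoter sequences of RefSeq (GRCh38.p14) were found for 49 members, with 64 start sites, and the 250 bases before each start were searched on both strands. The last 100 bases held TTTGAA or TTCGAA in 20 of 64 member promoters, against 4.92% of all 35116 promoters of the same length and 3.19% of promoters of genes tested. The 250 bases held CCAAT in 44 of 64, against 32.0% and 32.9%, and CCAAT at least 2 times in 25 of 64, against 9.53% and 11.3%. The E2F letters TTCCCGC or TTGGCGC occurred in 12 of 64 (18.8%), against 7.81% of all promoters and 11.4% of those of genes tested. CCAAT read on the other strand can share a base with TTTGAA, and each was counted. A match of letters is a description of the window and not a binding site.

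The promoters of ESPL1 (separase) and CENPF (an outer kinetochore protein) are printed because both are among the 4 members whose difference passed the test under every alternative tried in the 5-library comparison, and they differ in motif content. They run 5′ to 3′ and end at the base before the start, with TTTGAA and CCAAT (or its complement ATTGG) in capitals. ESPL1 holds TTTGAA starting 31 bases before the start and a CCAAT box at 48 bases. CENPF has 3 CCAAT matches, at 94, 58 and 33 bases, and no match to the CHR letters in this window.

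ESPL1, chr12:53268049-53268298, plus strand: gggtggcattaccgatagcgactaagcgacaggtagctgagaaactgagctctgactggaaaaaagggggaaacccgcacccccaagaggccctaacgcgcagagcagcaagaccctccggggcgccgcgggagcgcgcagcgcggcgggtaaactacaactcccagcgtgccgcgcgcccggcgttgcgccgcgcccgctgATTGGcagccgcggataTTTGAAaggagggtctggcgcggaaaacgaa
CENPF, chr1:214602945-214603194, plus strand: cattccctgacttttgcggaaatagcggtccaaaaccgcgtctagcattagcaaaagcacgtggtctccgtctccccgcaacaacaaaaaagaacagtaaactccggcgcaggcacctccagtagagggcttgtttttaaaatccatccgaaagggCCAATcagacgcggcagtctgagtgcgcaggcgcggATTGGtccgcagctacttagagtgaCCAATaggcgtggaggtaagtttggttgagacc

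The next stretches of 30 bases are centred on TTTGAA (in capitals) on the strand of the gene. The genes of the first 6 stretches were lower in siRPL13 replicates 1 and 2 by the test given below, and those of the last 3 did not pass it.

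CCNB2, chr15:59105105-59105134, plus strand: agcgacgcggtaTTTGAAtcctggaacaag
CDC25C, chr5:138331817-138331846, minus strand: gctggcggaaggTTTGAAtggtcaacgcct
PLK1, chr16:23678848-23678877, plus strand: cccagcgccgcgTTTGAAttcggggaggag
CDCA8, chr1:37692481-37692510, plus strand: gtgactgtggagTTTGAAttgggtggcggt
CENPA, chr2:26786026-26786055, plus strand: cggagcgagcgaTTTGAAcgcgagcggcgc
PRC1, chr15:90994538-90994567, minus strand: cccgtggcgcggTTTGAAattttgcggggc
CDC20, chr1:43358904-43358933, plus strand: cgacggttggatTTTGAAggagccaatagg
BUB1B, chr15:40161034-40161063, plus strand: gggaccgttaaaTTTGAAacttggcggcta
NCAPG, chr4:17810932-17810961, plus strand: tcgcgggaattaTTTGAAcgttcgagcggt

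In these stretches TTTGAA starts between 18 bases (CENPA) and 65 bases (CDC20) before the RefSeq start. The distance depends on the start chosen. By the GENCODE gene bounds, all of these stretches except that of CDC20 lie inside the gene. The CDCA8 stretch, for example, lies after a gene start at base 37692418. Most member promoters searched, these included, overlap an untranslated region of the same gene in GENCODE. The other RefSeq starts of CDC25C had no match to the CHR letters in 250 bases. Among promoters of members that passed the test, 15 of 44 held TTTGAA or TTCGAA in the last 100 bases, and among those of members that did not, 5 of 20. These promoters belong to 33 and 16 members, and windows of the same gene can overlap. CCAAT in 250 bases was found in 33 of 44 and 11 of 20. The letters were thus present in promoters of genes of both kinds.

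Before the members, the targeted transcript was read. RPL13 stood at 14.05, 14.16 and 14.18 in siNC replicates 1 to 3, while siRPL13 replicates 1 and 2 read 13.03 and 13.12 and the library labelled as siRPL13 replicate 3 read 14.09. The target was therefore not lowered in 1 of 3 libraries of its group. Results over all members are given with all 6 libraries and without that library (the 5-library comparison). Those of roles and of most single members are given for the 5-library comparison only. All 6 libraries had a median rlog of 9.12 to 9.13, and read depth is unknown. Glial and glioma markers VIM, NES, CD44, GFAP, SOX2, SOX9 and SLC1A3 lay above 11 in every library. S100B lay between 5.48 and 5.83, ALDH1L1 was below 1, and no row matched the symbol AQP4. Of the 8 such markers tested, VIM and NES fell in the 5-library comparison, by 0.31 ± 0.07 and 0.34 ± 0.05, and 0 rose. Differences were below 0 for 5 of these 8. The leukocyte genes CD68 and ITGAM and the epithelial gene CDH1 were below 1 in every library, while the leukocyte genes CD14 and CSF1R lay at 3.51 to 3.67 and 4.88 to 5.22. The endothelial gene CDH5 lay at 5.84 to 6.43 and fell by 0.46 ± 0.08 in the 5-library comparison, and KRT8, KRT18, KDR and MAP2 were above 6. Of 3 endothelial genes tested in that comparison, CDH5 was the 1 that fell, and 1 other rose by 0.21. The part of other cell types in the results was not tested. Interferon-stimulated genes varied strongly between libraries. Set against their siNC mean, 12 of them had medians of 0.20, 0.40 and -0.62 in the controls, -1.52 and -1.01 in the siRPL13 libraries with less RPL13 and 0.82 in the remaining siRPL13 library. Their part in the results below was not tested.

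The mitotic genes were lower as a group in siRPL13 replicates 1 and 2 and near the controls in the library labelled siRPL13 replicate 3. Set against the siNC mean, the 60 members had medians of 0.07, -0.08 and 0.02 in the controls, of -0.34 (replicate 1) and -0.20 (replicate 2) after siRPL13, and of 0.02 in the library labelled siRPL13 replicate 3. The siRPL13 replicate 1 library had the lowest value of all 6 for 58 members, the exceptions being CENPF, lowest in siRPL13 replicate 2, and SMC2, lowest in siNC replicate 1. Over all genes tested, siRPL13 replicate 1 was the lowest of the 6 for 3629 of 15327. Among the controls, siNC replicate 2 was lowest for 45 of 60 members and siNC replicate 1 highest for 40, so the controls also differed from each other in these genes. Over all genes tested the same counts were 5094 and 5418 of 15327.

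**Figure D1:**
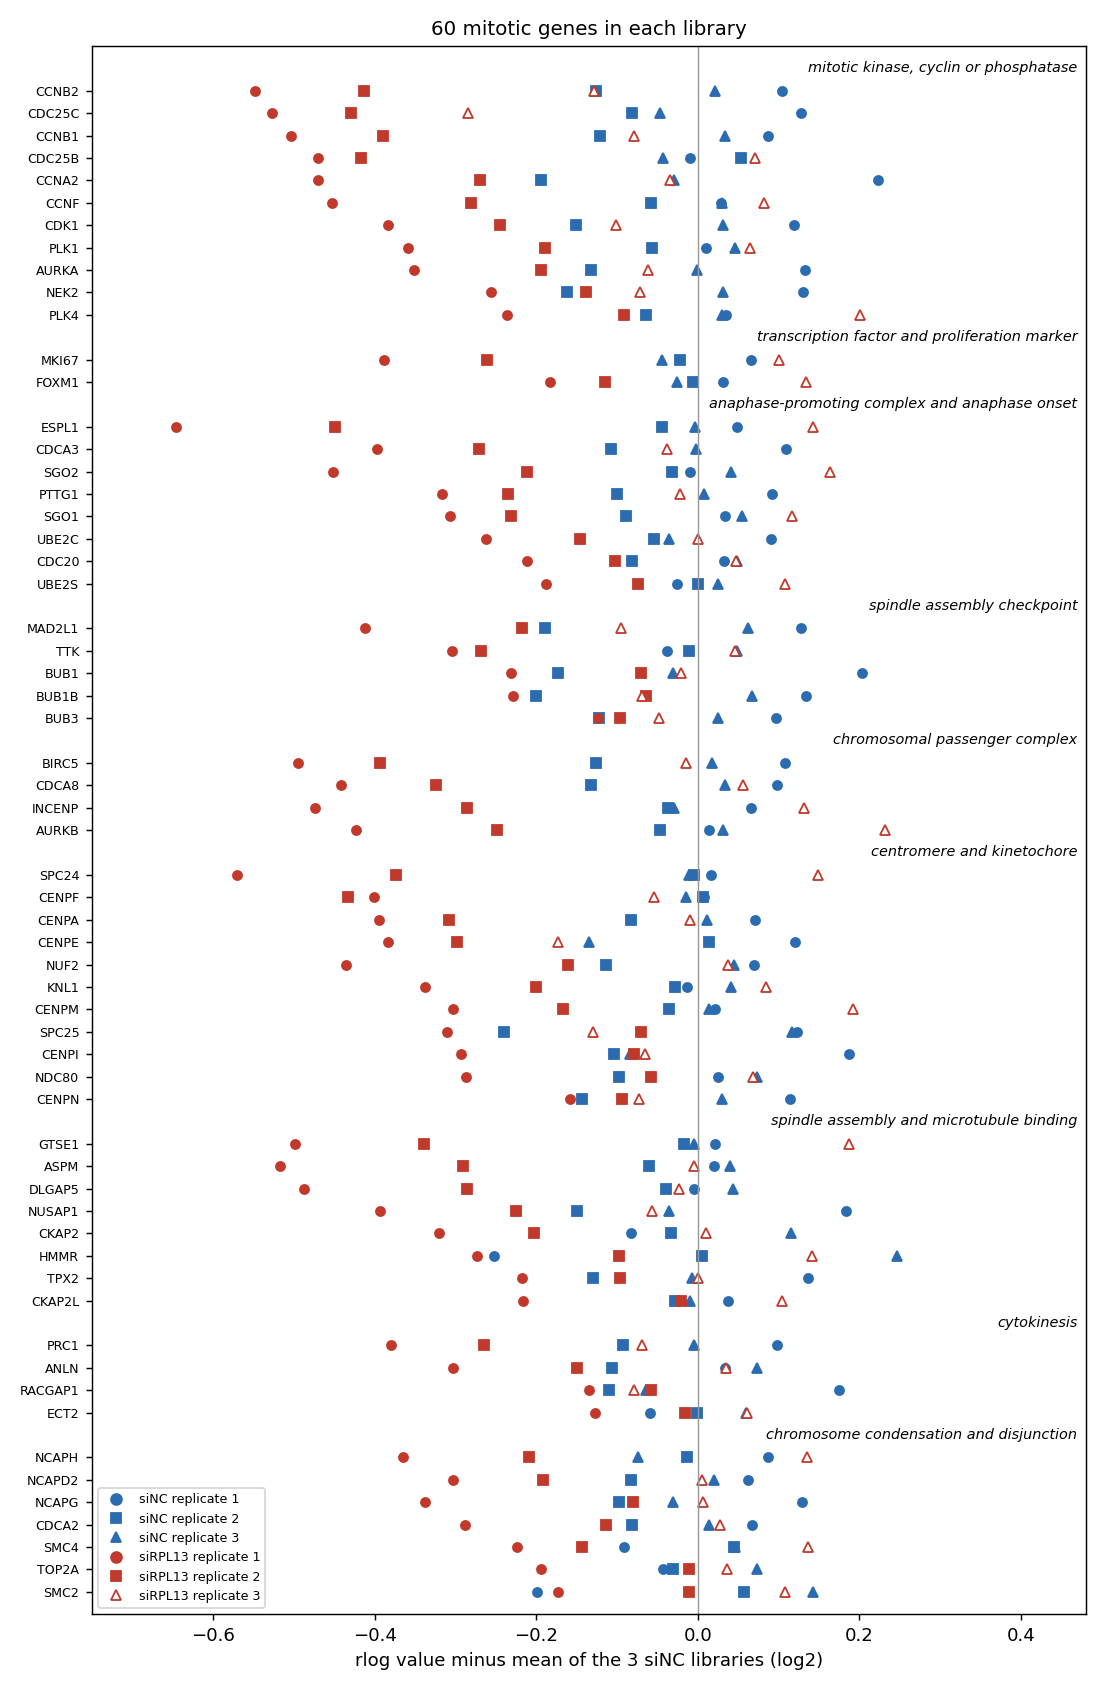
Level of each of 60 mitotic genes as rlog minus the mean of 3 siNC libraries (horizontal axis, log2), grouped by role, with 1 point for each library (blue, siNC, and red, siRPL13) and open triangles for the library labelled siRPL13 replicate 3. The siRPL13 replicate 1 library lies lowest for 58 members, and the open triangles lie within the range of the siNC libraries for 36 members, above it for 20 and below it for 4.

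With all 6 libraries no member passed the limma test, as was true of every gene tested (0 lower and 0 higher of 15327, 0% in each direction, smallest adjusted p = 0.589). At an unadjusted p under 0.05 there were 13 members lower and 0 higher, against 675 of all genes lower (4.4%) and 600 higher (3.91%). The difference siRPL13 minus siNC was below 0 for all 60 members, from -0.41 to -0.03 with a median of -0.17, while the median over all genes tested was 0.00. Without siRPL13 replicate 1 the median was -0.0762 and 10 members had a difference above 0. The 3 siRPL13 libraries all lay below the 3 siNC libraries for 4 of 60 members (CCNB2, CDC25C, CENPE and CENPF). This share is near the 6.9% of all genes tested. The reverse order held for 0 members, against 6.92% of all genes tested.

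Without that library, 39 of 60 members were lower and 0 higher at an adjusted p under 0.05 (limma, 5-library comparison), where 10.7% of all genes tested were lower and 8.42% higher, 19.1% in all. The member differences ran from -0.55 to -0.07 with a median of -0.27, and the median over all genes tested was 0.00. For 44 of 60 members both siRPL13 libraries lay below every siNC library, as they did for 26.6% of all genes tested, and for 0 members above (24.7% of all genes). The falls were modest: on the rlog scale ESPL1, the largest, was at 68.4% of siNC, and ECT2, the smallest difference, at 95.2%. Without siRPL13 replicate 1, 4 members passed (CDC25B, CENPF, ESPL1 and SPC24), where 0.92% of all genes tested were lower. Without siRPL13 replicate 2 there were 24, against 3.65% of all genes, and without siNC replicate 3 there were 26, against 8.63%. The first 2 of these fits hold 1 siRPL13 library, which is assumed to vary like the controls. Below, "fell" refers to the 5-library comparison, and no member passed over all 6 libraries.

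**Figure D2:**
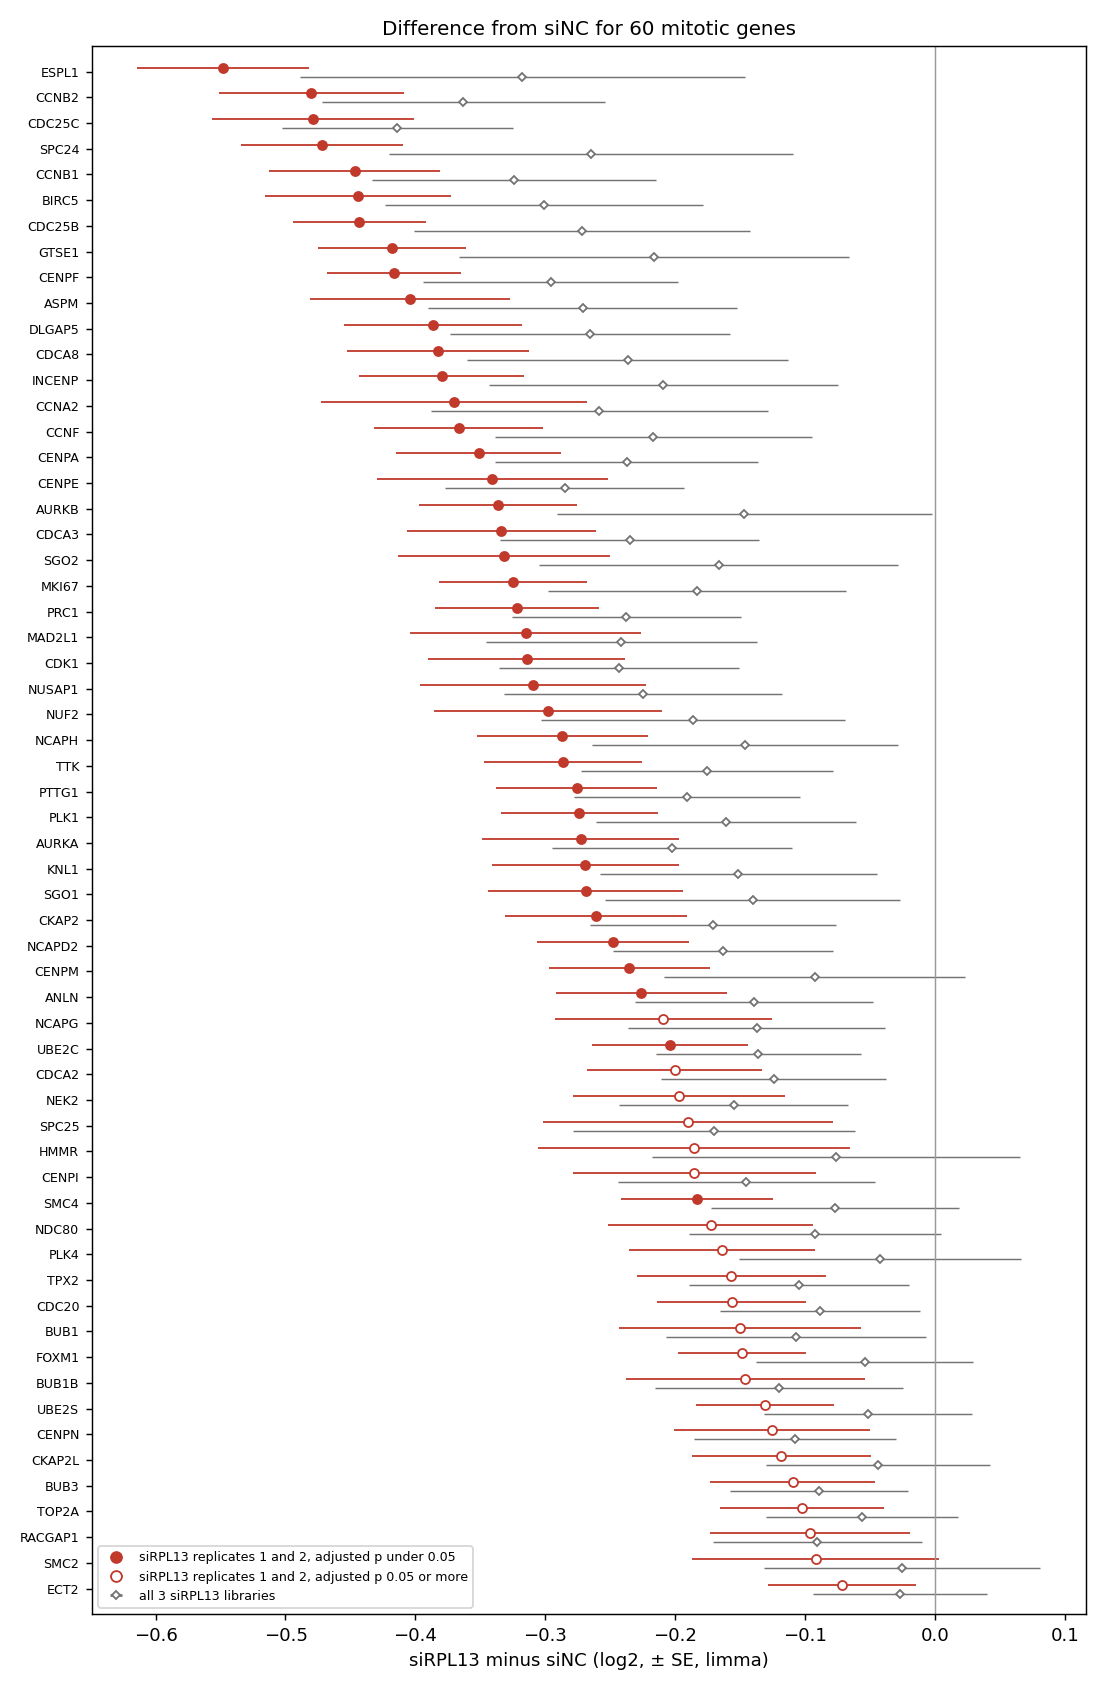
Difference siRPL13 minus siNC for 60 mitotic genes (horizontal axis, log2, bars ± SE by limma), ordered by the 5-library difference, with circles for siRPL13 replicates 1 and 2 against 3 siNC libraries (filled where the adjusted p was under 0.05) and grey diamonds for all 3 siRPL13 libraries. The circles run from -0.55 for ESPL1 to -0.07 for ECT2, 39 of them filled, and the diamonds lie nearer to 0, with a median SE of 0.100 against 0.07 for the circles.

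Of 11 mitotic kinases, cyclins and phosphatases 9 fell, with a median difference of -0.37. CCNB1, cyclin B1, the main mitotic partner of CDK1, stood at 12.92, 12.71 and 12.86 in siNC replicates 1 to 3, with siRPL13 replicates 1 and 2 reading 12.32 and 12.44, and the library labelled as siRPL13 replicate 3 reading 12.75. CDK1, the kinase itself, stood at 11.98, 11.71 and 11.89, at 11.47 and 11.61, and at 11.76 in the same order. For both genes siRPL13 replicates 1 and 2 lay below every control and the library labelled siRPL13 replicate 3 lay between the controls. CCNB1 fell by 0.45 ± 0.07 (SE, log2, adjusted p = 0.00186) and CDK1 by 0.31 ± 0.08 (adjusted p = 0.0165). Over all 6 libraries these differences were -0.32 ± 0.11 and -0.24 ± 0.09 (adjusted p = 0.589 for each).

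CDC25C and CCNB2 were the members of this group that lay below every control in all siRPL13 libraries. CDC25C, a phosphatase that activates CDK1, stood at 9.38, 9.17 and 9.20 in siNC, with siRPL13 replicates 1 and 2 reading 8.72 and 8.82, and the library labelled as siRPL13 replicate 3 reading 8.96. All 3 siRPL13 libraries were thus below all 3 controls, and the difference was -0.48 ± 0.08 (adjusted p = 0.00290) in the 5-library comparison and -0.41 ± 0.09 (adjusted p = 0.589) with all 6. CCNB2, cyclin B2, stood at 11.55, 11.32 and 11.47, at 10.90 and 11.03, and at 11.32 in the same order, the last of these just below the lowest control. CDC25B, the other CDC25 phosphatase listed, stood at 12.10, 12.16 and 12.07, at 11.64 and 11.69, and at 12.18. It had the smallest adjusted p of the members (0.000674, a fall of 0.44 ± 0.05), yet its level in the library labelled siRPL13 replicate 3 lay above every control.

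The cyclin genes CCNA2 and CCNF fell by 0.37 ± 0.10 and 0.37 ± 0.06, the polo-like kinase gene PLK1 by 0.27 ± 0.06 and the centrosomal kinase gene AURKA by 0.27 ± 0.08. PLK4 and NEK2 did not pass. PLK4, which starts centriole duplication, had the smallest difference of the group: it stood at 9.13, 9.03 and 9.13 in siNC, with siRPL13 replicates 1 and 2 reading 8.86 and 9.01, and the library labelled as siRPL13 replicate 3 reading 9.30, a difference of -0.16 ± 0.07. NEK2, a kinase of centrosome separation, differed by -0.20 ± 0.08.

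The proliferation antigen gene MKI67 fell, while FOXM1, a transcription factor of G2/M genes, did not pass. MKI67 stood at 13.64, 13.55 and 13.53 in siNC, with siRPL13 replicates 1 and 2 reading 13.18 and 13.31, and the library labelled as siRPL13 replicate 3 reading 13.67. FOXM1 stood at 12.16, 12.12 and 12.10, at 11.95 and 12.01, and at 12.26. In both, siRPL13 replicates 1 and 2 were below every control and the library labelled siRPL13 replicate 3 was above every control. The 5-library differences were -0.32 ± 0.06 (adjusted p = 0.00391) and -0.15 ± 0.05 (adjusted p = 0.0569).

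**Figure D3:**
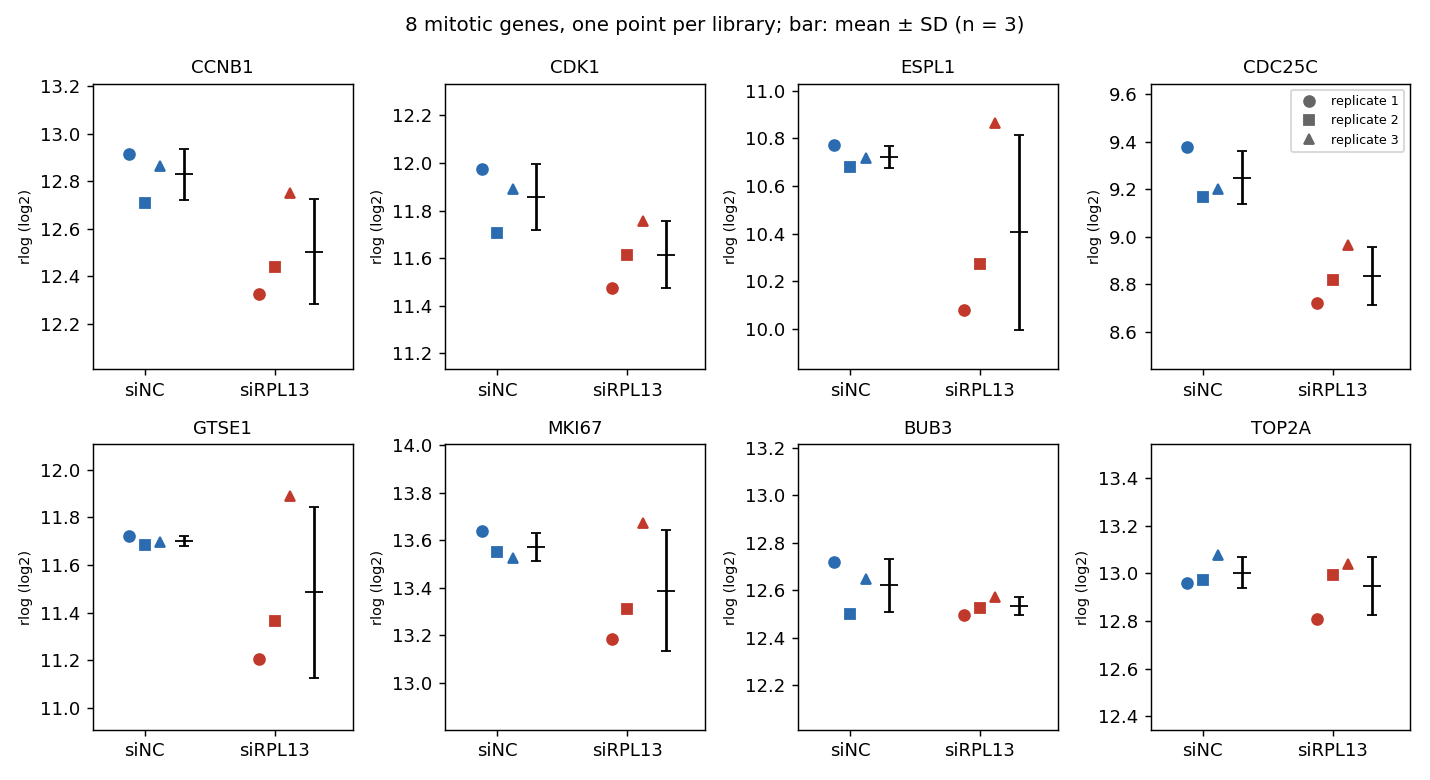
Level of 8 mitotic genes as rlog values (log2, each vertical axis spans the same range and does not start at 0), with 1 point for each library, the shape giving the replicate number, the colour the group (blue, siNC, and red, siRPL13), and a bar for the mean ± SD of 3 libraries. CDC25C is at 8.72 to 8.96 in all siRPL13 libraries, below the siNC libraries, whereas ESPL1 and GTSE1 in the library labelled siRPL13 replicate 3 lie at 10.87 and 11.89, above them.

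Of 8 genes of the anaphase-promoting complex route and anaphase onset 6 fell, with a median difference of -0.27. ESPL1, separase, the protease that opens cohesin, stood at 10.77, 10.68 and 10.72 in siNC, with siRPL13 replicates 1 and 2 reading 10.08 and 10.27, and the library labelled as siRPL13 replicate 3 reading 10.87. The siNC libraries were close together (10.72 ± 0.05, SD, n = 3), and siRPL13 replicates 1 and 2 lay below them. ESPL1 fell by 0.55 ± 0.07 (adjusted p = 0.000775), against -0.32 ± 0.17 with all 6 libraries (adjusted p = 0.603). PTTG1, securin, the inhibitor of separase, stood at 11.96, 11.77 and 11.88, at 11.55 and 11.64, and at 11.85, and fell by 0.28 ± 0.06. UBE2C, the E2 enzyme that starts ubiquitin chains for the complex, fell by 0.20 ± 0.06, and CDCA3, an F-box-like trigger of mitotic entry, by 0.33 ± 0.07. The shugoshin genes SGO1 and SGO2, protectors of centromeric cohesin, fell by 0.27 ± 0.07 and 0.33 ± 0.08. CDC20, the activator of the complex, stood at 12.49, 12.37 and 12.50, at 12.24 and 12.35, and at 12.50, and UBE2S, its chain-extending E2, at 14.20, 14.23 and 14.25, at 14.04 and 14.15, and at 14.34. Although siRPL13 replicates 1 and 2 lay below the controls for both, neither passed (-0.16 ± 0.06, adjusted p = 0.0805, and -0.13 ± 0.05, adjusted p = 0.108).

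Of 5 spindle assembly checkpoint genes 2 fell, with a median difference of -0.15. MAD2L1, which encodes the MAD2 protein that captures CDC20, stood at 11.60, 11.28 and 11.54 in siNC, with siRPL13 replicates 1 and 2 reading 11.06 and 11.26, and the library labelled as siRPL13 replicate 3 reading 11.38, and fell by 0.32 ± 0.09 (adjusted p = 0.0319). TTK, the kinase at the head of the checkpoint, stood at 9.58, 9.60 and 9.66, at 9.31 and 9.35, and at 9.66, and fell by 0.29 ± 0.06 (adjusted p = 0.00952). The 3 BUB genes did not pass and their groups overlapped. BUB1B stood at 10.63, 10.29 and 10.56, at 10.26 and 10.43, and at 10.42, and BUB3, the partner of BUB1 and BUB1B, at 12.72, 12.50 and 12.65, at 12.50 and 12.53, and at 12.57. In siNC replicate 2 both lay near the siRPL13 libraries. The differences were -0.15 ± 0.09 for BUB1, -0.15 ± 0.09 for BUB1B and -0.11 ± 0.06 for BUB3.

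All 4 genes of the chromosomal passenger complex, which corrects faulty kinetochore attachments, fell, with a median difference of -0.38. BIRC5, survivin, stood at 10.88, 10.64 and 10.79 in siNC, with siRPL13 replicates 1 and 2 reading 10.27 and 10.37, and the library labelled as siRPL13 replicate 3 reading 10.75. AURKB, the kinase of the complex, stood at 11.40, 11.34 and 11.42, at 10.96 and 11.14, and at 11.62. Both were below every control in siRPL13 replicates 1 and 2, and AURKB in the library labelled siRPL13 replicate 3 was 0.23 above the siNC mean, the highest such value among the members. BIRC5 fell by 0.44 ± 0.07 (adjusted p = 0.00268), CDCA8 (borealin) by 0.38 ± 0.07, the scaffold gene INCENP by 0.38 ± 0.06 and AURKB by 0.34 ± 0.06 (adjusted p = 0.00449).

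Of 11 centromere and kinetochore genes 7 fell, with a median difference of -0.27. SPC24, a subunit of the microtubule-binding NDC80 complex, stood at 11.10, 11.08 and 11.08 in siNC, with siRPL13 replicates 1 and 2 reading 10.52 and 10.71, and the library labelled as siRPL13 replicate 3 reading 11.24, and fell by 0.47 ± 0.06 (adjusted p = 0.00112). Of its partners in the same complex, NUF2 fell by 0.30 ± 0.09, while NDC80 (-0.17 ± 0.08) and SPC25 (-0.19 ± 0.11) did not pass and their groups overlapped. NDC80 stood at 9.98, 9.86 and 10.03, at 9.67 and 9.90, and at 10.02.

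CENPA, the histone variant that marks the centromere, stood at 10.37, 10.21 and 10.31 in siNC, with siRPL13 replicates 1 and 2 reading 9.90 and 9.99, and the library labelled as siRPL13 replicate 3 reading 10.29, and fell by 0.35 ± 0.06 (adjusted p = 0.00441). CENPF stood at 10.70, 10.70 and 10.68, at 10.29 and 10.26, and at 10.64, so that all siRPL13 libraries lay below all controls, and fell by 0.42 ± 0.05 (adjusted p = 0.000850). CENPE, a kinetochore motor, fell by 0.34 ± 0.09 and was likewise below every control in all 3 siRPL13 libraries. KNL1, the scaffold that recruits checkpoint proteins, fell by 0.27 ± 0.07 and CENPM, of the inner kinetochore, by 0.24 ± 0.06. The inner kinetochore genes CENPI and CENPN did not pass, CENPN having the smallest difference of the group (-0.13 ± 0.08) with levels of 10.20, 9.94 and 10.12, of 9.93 and 9.99, and of 10.01.

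Spindle genes fell in 5 of 8 cases, with a median difference of -0.29. GTSE1, a microtubule-binding protein of G2 and mitosis, stood at 11.72, 11.68 and 11.70 in siNC, with siRPL13 replicates 1 and 2 reading 11.20 and 11.36, and the library labelled as siRPL13 replicate 3 reading 11.89, and fell by 0.42 ± 0.06 (adjusted p = 0.00120). ASPM, a spindle-pole protein, stood at 9.48, 9.40 and 9.50, at 8.94 and 9.17, and at 9.45, and fell by 0.40 ± 0.08. DLGAP5, NUSAP1 and CKAP2, which bind or bundle spindle microtubules, fell by 0.39 ± 0.07, 0.31 ± 0.09 and 0.26 ± 0.07. TPX2, the activator of Aurora A, stood at 13.07, 12.80 and 12.93, at 12.72 and 12.84, and at 12.93, and CKAP2L at 9.83, 9.77 and 9.78, at 9.58 and 9.77, and at 9.90. In both, siRPL13 replicate 2 reached the range of the controls, and neither passed (-0.16 ± 0.07 and -0.12 ± 0.07). HMMR also did not pass (-0.19 ± 0.12), its controls spreading from 8.88 to 9.38.

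Of 4 cytokinesis genes 2 fell, with a median difference of -0.16. PRC1, which bundles the central spindle, stood at 12.36, 12.17 and 12.26 in siNC, with siRPL13 replicates 1 and 2 reading 11.88 and 11.998, and the library labelled as siRPL13 replicate 3 reading 12.19, and fell by 0.32 ± 0.06 (adjusted p = 0.00665). ANLN, the scaffold of the contractile ring, stood at 12.70, 12.56 and 12.74, at 12.36 and 12.51, and at 12.70, and fell by 0.23 ± 0.07. ECT2, the activator of RhoA, stood at 11.67, 11.72 and 11.79, at 11.60 and 11.71, and at 11.79. Its groups overlapped and its difference, -0.07 ± 0.06, was the smallest of the 60, followed by those of SMC2 and RACGAP1, a subunit of centralspindlin (-0.10 ± 0.08).

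Of 7 chromosome condensation genes 3 fell, with a median difference of -0.20. NCAPH, the subunit that closes the condensin I ring, stood at 11.08, 10.98 and 10.92 in siNC, with siRPL13 replicates 1 and 2 reading 10.63 and 10.79, and the library labelled as siRPL13 replicate 3 reading 11.13, and fell by 0.29 ± 0.07 (adjusted p = 0.0133). NCAPD2, of the same complex, fell by 0.25 ± 0.06 and the ATPase gene SMC4 by 0.18 ± 0.06 (adjusted p = 0.0494). TOP2A, topoisomerase II alpha, stood at 12.96, 12.97 and 13.08, at 12.81 and 12.99, and at 13.04, and SMC2, the other condensin ATPase, at 9.41, 9.66 and 9.75, at 9.43 and 9.60, and at 9.71. Both had overlapping groups and did not pass (-0.10 ± 0.06 and -0.09 ± 0.10), nor did NCAPG (-0.21 ± 0.08) and CDCA2 (-0.20 ± 0.07).

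In the library labelled siRPL13 replicate 3 the values of 20 members lay above every control and those of 4 below every control, where 29.4% and 27.9% of all genes tested did so, so the share above is near that of all genes. Of the 20 members above, 15 were among the 39 of 60 that had fallen in the 5-library comparison, which uses the same controls, including AURKB, GTSE1, CENPM, SGO2 and SPC24 (by 0.15 to 0.23 above the siNC mean). The 4 below had all fallen: CDC25C, which was 0.28 below the siNC mean in the library labelled siRPL13 replicate 3, CENPE (0.17 below), CCNB2 (0.13 below) and CENPF.

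Other genes of the same processes were read from lists. Of 61 further mitotic genes 24 fell and 1 rose in the 5-library comparison, with a median difference of -0.18. The chromatin protein gene HMGB2 and the nuclear lamina gene LMNB1 had the largest falls, 0.52 ± 0.07 and 0.48 ± 0.07, and PMF1, a subunit of the MIS12 kinetochore complex, rose by 0.26 ± 0.07. Mitotic kinesins were lower in 7 of 12 cases and none rose, with KIF20B and KIF2C falling by 0.41 ± 0.07 and 0.35 ± 0.07. DNA replication genes, which peak earlier in the cycle, fell in 25 of 46 cases and none rose, with FEN1 and RRM2 falling by 0.50 ± 0.05 and 0.44 ± 0.08, and a list median of -0.25. With all 6 libraries no gene of these lists passed.

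Of 14 core subunits of the anaphase-promoting complex 1 fell (ANAPC2, by 0.19 ± 0.06) and 2 rose (ANAPC13 by 0.29 ± 0.07 and ANAPC1 by 0.23 ± 0.07), with a list median of 0.08, where 10.7% of all genes tested fell and 8.42% rose. Of 16 cohesin and condensin II genes 1 fell, CDCA5 (sororin, by 0.42 ± 0.05), and 2 rose, STAG1 by 0.28 ± 0.09 and NCAPH2 by 0.22 ± 0.05. With so few genes, the calls in these lists are close to the shares over all genes. Among 15 genes of the DREAM and MuvB complexes and the E2F family 4 fell, led by E2F7 (0.48 ± 0.07) and MYBL2, which encodes B-MYB (0.45 ± 0.05), and none rose. Differences were below 0 for 7 of these 15 genes, and the list median was 0.02. The difference between these lists and the members was not tested.

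**Figure D4:**
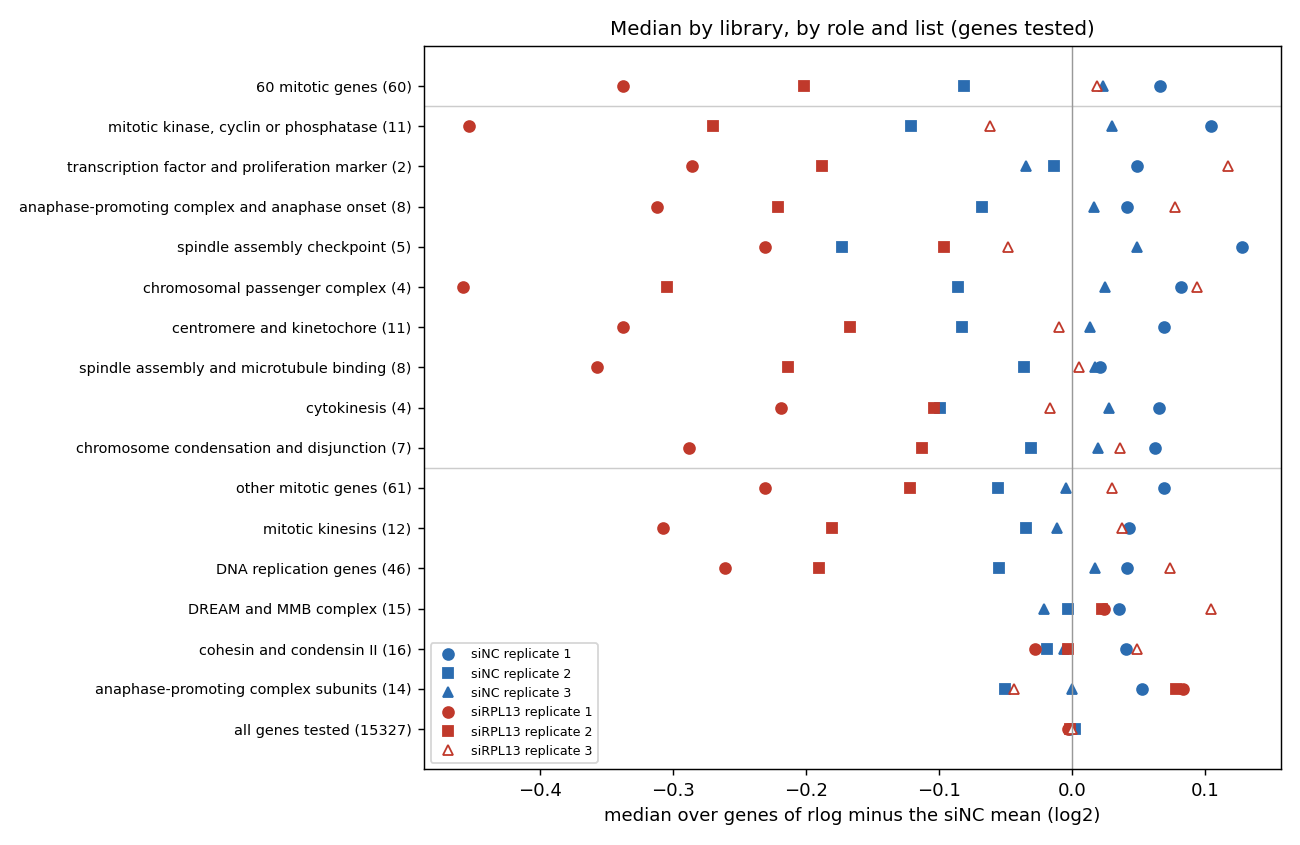
Median over the genes of each role or list of the rlog difference from the siNC mean (horizontal axis, log2), with the number of genes tested in brackets, 1 point for each library (blue, siNC, and red, siRPL13) and open triangles for the library labelled siRPL13 replicate 3. For the 60 mitotic genes siRPL13 replicates 1 and 2 lie at -0.34 and -0.20, for core subunits of the anaphase-promoting complex at 0.08 and 0.08, and for all genes tested near 0.00.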

How the data were processed

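RNA sequencing libraries of 6 cultures were used, grouped by the labels into siNC and siRPL13. The authors deposited log2 values after an rlog transformation, which is known from the file name alone. Build GRCh38.p7 and the tools DESeq2, HTSeq 0.6.1p1, TopHat and Trimmomatic 0.33 are listed in the submitters' processing notes, without roles or settings. The rlog scale understates differences of low genes, and depth cannot be read from it.

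Symbols came from a table of current gene names and GENCODE 29. Genes whose rlog averaged 3 or more were tested with limma 3.58.1 in R 4.3.3 (eBayes with a trend, two-sided). The p-values were adjusted over all 15327 genes with the Benjamini-Hochberg method at 0.05. The test was checked on simulated data with the spread of the 5-library fit and added changes larger than most member differences. The check therefore says little about the fit to all 6 libraries or about changes of the members' size. Values with ± are the limma SE unless given as SD. The labels call the libraries biological replicates without saying how cultures were separated, so p-values reflect only how far libraries differ, which may be technical. The members, gene lists, promoter motifs and the 5-library comparison were chosen with earlier results of these data known. Named in full were, for each role, the members with the largest and smallest 5-library difference and up to 3 central components, and for each list up to 2 called genes per direction. Some items are not reported here. Alternatives were a filter at 5 or none, median centring, quantile scaling, a robust or trend-free eBayes, library weights, the replicate number as a block, and each library left out. Figures were drawn with matplotlib 3.10.9.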

Additional observations from a re-analysis of the deposited data

How the results depend on the processing

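With all 6 libraries, library weights (0.163 for the library labelled siRPL13 replicate 3, 7.19 for siRPL13 replicate 2) gave 2601 genes higher, 2708 lower and 38 members lower. Leaving out 1 library at a time gave 0 to 1291 genes higher, 0 to 1642 lower, 0 to 39 members lower and a member median of -0.27 to -0.0762, every call coming from the fit without the library labelled siRPL13 replicate 3. In the 5-library comparison library weights gave 2007 genes higher. Leaving out 1 more library gave 102 to 1734 genes higher, 141 to 2014 lower, 4 to 44 members lower and a median of -0.34 to -0.20, the lowest counts without siRPL13 replicate 1 and, for members, 24 without siRPL13 replicate 2. Of the 39 members, 29 passed under every setting that kept all 5 libraries, and 31 with the replicate block left aside. The cause of these changes was not tested. Quantile scaling changed the 5-library split to 1483 genes higher and 1409 lower and left 36 members lower.

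Leaving out single libraries turned the sign of 10 uncalled member differences over all 6 libraries, with ranges of -0.2353 to 0.0126 (CENPM), -0.1184 to 0.0417 (CKAP2L), -0.0717 to 0.0229 (ECT2), -0.1488 to 0.0098 (FOXM1), -0.2023 to 0.047 (HMMR), -0.1728 to 0.0053 (NDC80), -0.164 to 0.0548 (PLK4), -0.1249 to 0.0483 (SMC2), -0.1025 to 0.0127 (TOP2A) and -0.1313 to 0.0168 (UBE2S). Same-numbered libraries did not deviate together (correlations over genes of 0.084, -0.428 and -0.328). The group means behind these deviations include the library labelled siRPL13 replicate 3, so the values cannot show whether the numbers pair libraries. With the replicate block the counts were 0 genes and 0 members over all 6 libraries, and 1326 genes higher, 1717 lower and 38 members lower over 5. The latter fit leaves 1 residual degree of freedom and takes its spread almost wholly from the trend over genes, so it says little about stability.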

Other observations

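To set levels of different members beside each other, the log2 of the merged exon length in kb was subtracted from the siNC mean. On this scale UBE2S (12.75), UBE2C (11.48), CCNB1 (11.47) and CDC20 (11.43) were the highest members and CENPE (4.10), SPC25 (4.65) and KNL1 (5.37) the lowest. The subunits of the NDC80 complex spread widely, SPC24 at 9.58, NDC80 at 8.11, NUF2 at 7.90 and SPC25 at 4.65. The condensin ATPases stood at 8.48 (SMC4) and 6.91 (SMC2).

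Exon bases of 17 members overlap with another gene of the table, and the sources used here do not state whether reads were counted by strand. On the same strand, a gene absent from the table covered 62.2% of the exon length of NUSAP1 and another covered 57.6% for PRC1. Same-strand overlaps of BUB1B and CENPA were smaller. For NCAPG the overlap with LCORL on the opposite strand covered 33.1% of the exon length, and LCORL differed by -0.19 ± 0.07 in the 5-library comparison. CDC25C shares 293 exon bases with FAM53C, which fell by 0.27 ± 0.06. Named pseudogenes in the table were CDC20P1 at a mean rlog of 6.30, UBE2SP1 at 9.11 and UBE2SP2 at 8.14, so reads of CDC20 and UBE2S may be divided between gene and copy. BUB3P1 was at 0.20, with BUB3 at 12.58.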
